A study of Homo sapiens with 36 samples.

Results

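A set of 10 genes with roles in immune cells is described here across 3 mantle cell lymphoma cell lines exposed to an inhibitor of the KDM5 histone demethylases. They are IL27RA, CD82, SCIMP, SH2D2A, DGKG, AIF1, MYO1F, CNN2, LBH and TBC1D9, which is 10 of the 58302 gene IDs in the deposited tables. The genes were chosen by symbol because their levels were higher with the inhibitor in earlier results of these data. The values that chose them are the differences between treated and vehicle libraries, so those differences are a description. Counts of genes past a threshold on them, also where lines or times are compared, are given beside the share of all genes and support nothing. The lines were JEKO, MINO and UPN-1, all established cultures of mantle cell lymphoma, a B-cell cancer driven by cyclin D1. Each was given GS716054, the KDM5 inhibitor, or its vehicle DMSO and was collected 24 h or 72 h after treatment. That makes 12 groups of 3 libraries, numbered as biological replicates in the labels, and 36 libraries in all. No dose is given in the labels, no untreated group was analysed here, and each line stands for 1 patient's tumour.

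KDM5 enzymes remove methyl groups from lysine 4 of histone H3, a mark found at active promoters, and their inhibition leaves more of that mark in place. The 10 genes sit at different places in an immune cell. IL27RA and CD82 are surface proteins, SCIMP and SH2D2A are adaptors that carry signals inward from receptors, and DGKG turns the lipid messenger diacylglycerol into phosphatidic acid. AIF1, MYO1F and CNN2 act on the actin cytoskeleton beneath the membrane. LBH is a transcription cofactor, and TBC1D9 belongs to a family of regulators of Rab proteins in membrane traffic. Several of them, AIF1 and MYO1F among them, are best known from macrophages or other myeloid cells, and SH2D2A from T cells.

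The libraries held between 8784815 and 14970876 reads in genes, so 3 reads correspond to 0.196 to 0.353 CPM, the read count scaled to a common library size. All 8 B-cell markers were above 1 CPM in every group, and CCND1, which encodes cyclin D1, was the most abundant of 3 mantle cell lymphoma markers in every group. The 15 myeloid markers summed to between 3.17 and 22.7 CPM in any library, and FCGR3A, S100A8, S100A9, CD163 and MPO had no read in any library. In MINO at 24 h, the myeloid sum lay at 8.46 to 10.8 CPM with DMSO and 20.2 to 22.7 CPM with GS716054, led by TYROBP. At 72 h the corresponding ranges were 6.46 to 14.5 and 12.4 to 15.4 CPM. Of the T-cell markers, CD2 and TRAT1 had no read in any library, whereas ZAP70 reached a mean of 137 CPM in MINO and CD247 92.0 CPM in JEKO. Log2 differences with GS716054 were positive for 4 of 6 tested T-cell markers in MINO and 5 of 5 in JEKO at each time. Their medians at 24 h and 72 h were 0.81 and 0.63 in MINO, and 0.51 and 0.74 in JEKO. In MINO at 24 h, mean CD8A was 4.31 CPM with DMSO and 11.2 CPM with GS716054, and mean ZAP70 101.5 and 94.3 CPM. The part of these markers in the differences below was not tested. B-cell markers moved in the same direction as the 10 genes in MINO, with sums of 2884 to 3565 CPM with DMSO against 5163 to 5513 CPM with GS716054 at 24 h, and 2773 to 3341 against 4497 to 5377 CPM at 72 h. In bulk RNA, more cells with a transcript and more transcript per cell cannot be told apart.

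Since KDM5 enzymes act at promoters, the RefSeq promoter windows (GRCh38.p14), running from 250 bases before to 50 bases after each gene's start, are shown for 4 genes that differ in base composition. CNN2 and CD82 have CpG-rich windows, while MYO1F and the second start of AIF1 have fewer CpG than the median window. Each runs 5′ to 3′ on the gene's strand, and capitals mark the GC-box letters CCGCCC, which read GGGCGG on the other strand, or the ETS-type letters GAGGAAGT (ACTTCCTC on the other strand).
CNN2, chr19:1026358-1026657, plus strand: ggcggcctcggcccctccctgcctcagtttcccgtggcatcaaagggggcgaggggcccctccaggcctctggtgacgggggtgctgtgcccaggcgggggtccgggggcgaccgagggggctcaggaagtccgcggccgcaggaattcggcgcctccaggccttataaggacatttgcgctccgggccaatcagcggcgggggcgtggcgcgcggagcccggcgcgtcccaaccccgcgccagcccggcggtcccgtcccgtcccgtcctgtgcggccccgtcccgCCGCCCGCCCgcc
CD82, chr11:44565413-44565712, plus strand: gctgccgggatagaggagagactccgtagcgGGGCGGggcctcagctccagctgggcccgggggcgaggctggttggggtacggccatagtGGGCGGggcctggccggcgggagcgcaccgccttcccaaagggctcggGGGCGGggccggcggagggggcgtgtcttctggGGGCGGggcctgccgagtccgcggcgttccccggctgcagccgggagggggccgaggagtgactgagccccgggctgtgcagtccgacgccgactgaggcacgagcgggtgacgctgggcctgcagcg
MYO1F, chr19:8577393-8577692, minus strand: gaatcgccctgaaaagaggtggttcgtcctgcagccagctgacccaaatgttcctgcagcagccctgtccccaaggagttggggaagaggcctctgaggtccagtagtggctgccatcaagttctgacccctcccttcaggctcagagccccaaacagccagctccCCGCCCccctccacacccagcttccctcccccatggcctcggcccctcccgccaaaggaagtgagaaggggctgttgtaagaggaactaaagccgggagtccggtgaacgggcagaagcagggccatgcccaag
AIF1, chr6:31615741-31616040, plus strand: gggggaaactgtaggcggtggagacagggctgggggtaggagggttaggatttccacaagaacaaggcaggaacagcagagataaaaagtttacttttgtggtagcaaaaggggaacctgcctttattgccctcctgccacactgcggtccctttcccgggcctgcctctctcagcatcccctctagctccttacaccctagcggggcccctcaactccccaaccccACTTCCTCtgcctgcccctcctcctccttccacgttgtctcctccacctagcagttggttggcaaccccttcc
The CNN2 window was 77.0% G and C with 38 CpG, and the CD82 window 76.7% with 33 CpG. The MYO1F window had 62.3% and 8 CpG, and the AIF1 window 58.0% and 5 CpG. The first AIF1 window, not shown, had 51.0% and 1 CpG. Across 35116 promoter windows, the median was 58.7% G and C and 14 CpG, with CpG quartiles of 4 and 28. The GC box, whose letters the DNA-binding domain of KDM5A is known to prefer, was present in 6 of the 8 windows found for 7 of the genes. These were the windows of CD82, CNN2, DGKG, IL27RA, LBH and MYO1F, against 45.0% of all windows. CD82 and LBH held 4 such matches each, with LBH also carrying TATAAA 31 bases before its start (11.5% of all windows had that motif). AIF1 had none in either of its 2 windows. Its second window held the only GAGGAAGT match, 23 bases before the start, a motif in 2.59% of windows and of the type that the myeloid and B-cell factor PU.1 recognises. The related ETS letters CCGGAAGT, in 4.14% of all windows, were in none of the 8. These are matches of letters and do not show that a factor was bound. The share of GC boxes among windows of like base composition was not computed.

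In MINO, the 10 genes were higher with GS716054 at both times, by a median log2 difference of 1.15 at 24 h and 1.71 at 72 h, against medians of 0.0051 and -0.027 over all genes tested. By edgeR's quasi-likelihood test with Benjamini-Hochberg adjustment, 8 of the 10 were called higher in MINO at 24 h (all but AIF1 and SH2D2A), beside 1.44% of all genes tested, and 9 at 72 h (all but SH2D2A), beside 3.51%. In JEKO and UPN-1, none was called higher or lower at either time. The background there was low as well, with 0% and 0.204% of genes called higher in JEKO and 0.00656% and 0.275% in UPN-1 at 24 h and 72 h. At an unadjusted p under 0.05, 4 of the 9 tested genes counted in JEKO at 24 h and 6 at 72 h, and 2 and 6 of 9 in UPN-1. Over all genes tested, 662 and 1438 of 16690 counted in JEKO, and 577 and 1130 of 15248 in UPN-1. With DESeq2 the counts in JEKO were 0 and 2 and in UPN-1 0 and 2. Over all genes in JEKO, DESeq2 called 10 and 163 of 16690 higher. The log2 differences themselves were mostly positive outside MINO, in 8 of 9 genes at each time in JEKO (medians 0.22 and 0.67) and in 8 and then 9 of 9 in UPN-1 (medians 0.33 and 0.74). MYO1F in JEKO and SCIMP in UPN-1 had too few reads to be fitted within those lines. Same-numbered DMSO and treated libraries deviated together in MINO and UPN-1 at both times and in JEKO at 72 h. The fits above did not use this. In a fit blocked by replicate number, CNN2 passed the threshold in UPN-1 at 24 h, and AIF1 and CNN2 at 72 h. In MINO at 24 h the block also added AIF1, while calls of a higher level over all genes rose from 216 to 561 of 15028. The MINO count at 24 h was 5 without DMSO replicate 1, 4 without DMSO replicate 2 and 4 without treated replicate 2. Calls over all genes fell as well, from 216 to 29 without DMSO replicate 1 and to 18 without DMSO replicate 2, of 15028. MYO1F, SCIMP, CD82 and TBC1D9 were called in all 6 fits that left out 1 library.

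**Figure D1:**
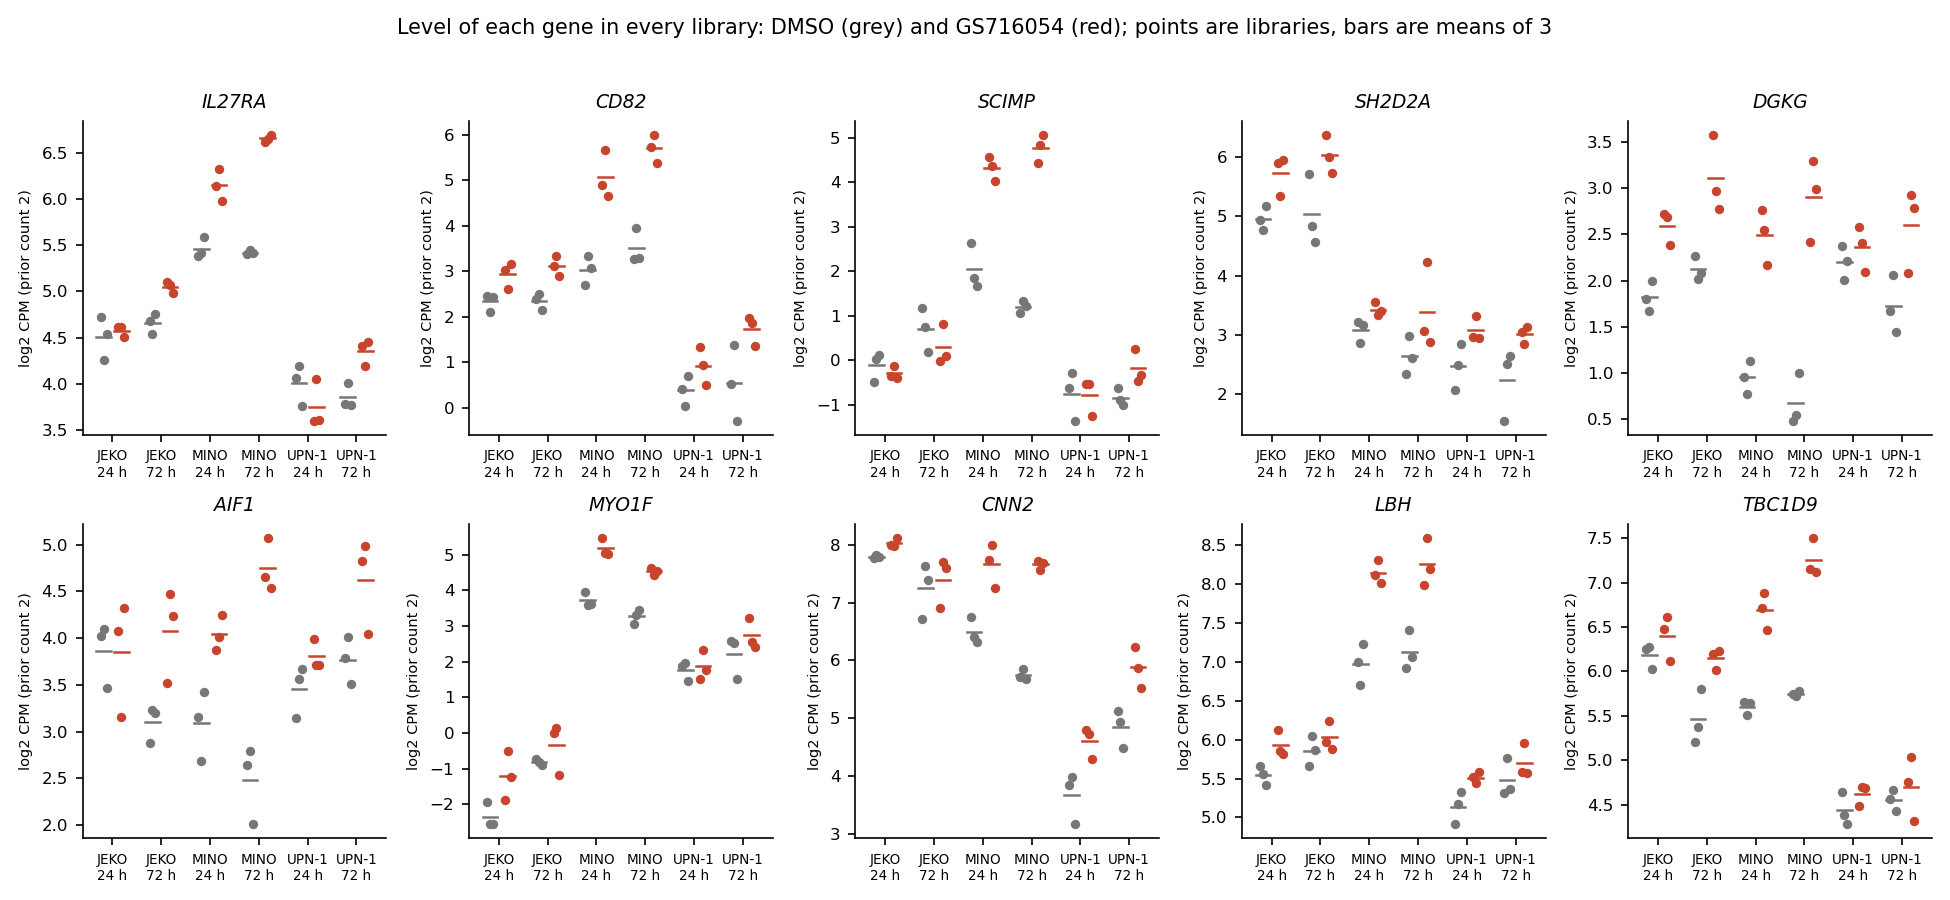
Level of each of the 10 genes in all 36 libraries on a log2 CPM scale (prior count 2), by line and time, with DMSO in grey and GS716054 in red; each point is a library and each bar the mean of 3. In MINO the red points lie above the grey ones for every gene at 24 h and for every gene but SH2D2A at 72 h, and MYO1F lies far lower in JEKO than in MINO.

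IL27RA (ENSG00000104998, chr19:14031762-14053218, plus strand, GRCh38) encodes the chain of the interleukin-27 receptor that pairs with gp130 and signals through JAK and STAT proteins. With DMSO, the 3 MINO libraries held 41.7, 42.5 and 47.9 CPM at 24 h and 42.1, 43.5 and 42.5 CPM at 72 h. With GS716054 they held 70.5, 79.9 and 63.0 CPM at 24 h and 98.1, 100.2 and 103 CPM at 72 h. The groups did not overlap at either time, and at 72 h the treated libraries were 2.34-fold above DMSO (log2 difference 1.22 ± 0.12, SE, n = 3 in each group). JEKO libraries overlapped at 24 h, with 19.0 to 26.2 CPM for DMSO and 22.6 to 24.3 CPM for GS716054. By 72 h the JEKO ranges had separated, at 23.2 to 26.9 and 31.4 to 34.3 CPM. UPN-1 went from 13.4 to 18.2 CPM with DMSO and 12 to 16.5 CPM with GS716054 at 24 h to separate ranges of 13.5 to 16.0 and 18.1 to 21.7 CPM at 72 h. IL27RA was thus separated in MINO alone at 24 h and in all 3 lines at 72 h.

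CD82 (ENSG00000085117, chr11:44564427-44620358, plus strand) encodes a tetraspanin, a membrane protein that organises receptors and integrins into domains and is also known as a suppressor of metastasis. Its MINO libraries held 6.36, 9.93 and 8.19 CPM with DMSO and 29.5, 50.6 and 24.9 CPM with GS716054 at 24 h. At 72 h they held 9.54, 15.2 and 9.61 CPM against 52.8, 63.8 and 41.6 CPM. Every treated library stood above every DMSO library, and the fitted difference between the groups was 4.18-fold at 24 h (log2 2.06 ± 0.29, SE) and 4.60-fold at 72 h (log2 2.201 ± 0.29). Replicate 2 was the highest in each of these 4 groups. In JEKO, CD82 was also separated at both times, but by less, with 4.16 to 5.37 CPM against 5.92 to 8.85 CPM at 24 h and 4.29 to 5.53 against 7.30 to 9.97 CPM at 72 h. UPN-1 had little CD82, 0.656 to 2.45 CPM with DMSO and 2.42 to 3.76 CPM with GS716054 at 72 h, and the highest DMSO library lay just above the lowest treated one. CD82 shares 6.93% of its exonic bases with CD82-AS1 on the opposite strand.

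SCIMP (ENSG00000161929, chr17:5208920-5234860, minus strand) is a transmembrane adaptor of antigen-presenting cells that sits in tetraspanin domains and recruits the kinase LYN and the adaptors GRB2 and BLNK. It showed the largest difference among the 10 genes in MINO at both times. Its MINO libraries held 6.003, 3.42 and 3.00 CPM with DMSO and 23.5, 20.5 and 16.2 CPM with GS716054 at 24 h. At 72 h they held 1.92, 2.36 and 2.16 CPM against 21.3, 28.5 and 33.5 CPM, a 12.8-fold difference (log2 3.68 ± 0.28, SE). No treated library came near the DMSO libraries. In JEKO the level was close to 1 CPM in all groups, and the log2 difference was negative, -0.25 ± 0.48 at 24 h and -0.46 ± 0.43 at 72 h. In UPN-1 the gene had few reads, with 14 reads in the DMSO group and 28 in the treated group at 72 h, a ratio per gene read of 1.93 (95% exact interval 0.982 to 3.96, counting error only). SCIMP overlaps ZNF594-DT on the opposite strand over 13.1% of its exonic bases.

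SH2D2A (ENSG00000027869, chr1:156806243-156816848, minus strand) encodes a T-cell-specific adaptor with an SH2 domain, known to bind the kinase LCK. JEKO had the highest level of the 3 lines in every condition, with 30.6, 27.1 and 36.04 CPM with DMSO and 59.4, 40.4 and 62.1 CPM with GS716054 at 24 h. At 72 h JEKO held 52.3, 28.5 and 23.5 CPM against 83.0, 64.1 and 53.1 CPM, where the first DMSO library was nearly as high as the lowest treated one (log2 difference 0.94 ± 0.27, SE). UPN-1 was separated at both times at a much lower level, for example 2.77, 5.54 and 6.07 CPM against 8.07, 7.07 and 8.65 CPM at 72 h. In MINO, the 24 h groups were separated but close, at 7.11 to 9.18 and 9.92 to 11.5 CPM. At 72 h they overlapped, at 4.92, 7.71 and 5.95 CPM against 8.25, 18.5 and 7.20 CPM, and the log2 difference of 0.87 fell to 0.32 without treated replicate 2. SH2D2A was the only one of the 10 not called in MINO at either time.

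DGKG (ENSG00000058866, chr3:186105668-186362234, minus strand) encodes diacylglycerol kinase gamma, a calcium-binding type of the enzyme that ends diacylglycerol signalling. Its MINO libraries held 1.77, 1.54 and 2.03 CPM with DMSO and 6.64, 5.66 and 4.33 CPM with GS716054 at 24 h. At 72 h they held 1.23, 1.29 and 1.83 CPM against 5.18, 9.62 and 7.77 CPM, or 5.07-fold (log2 2.34 ± 0.30, SE). The treated libraries of JEKO were likewise above DMSO at both times, at 3.87 to 4.63 against 6.68 to 11.8 CPM at 72 h (log2 1.05 ± 0.25). UPN-1 overlapped at 24 h, with 3.86 to 5.02 CPM against 4.09 to 5.79 CPM. At 72 h its lowest treated library, 4.08 CPM, lay just above its highest DMSO library, 3.999 CPM. After treatment for 72 h, the mean levels in the 3 lines were 8.70, 7.53 and 6.08 CPM in JEKO, MINO and UPN-1, whereas with DMSO MINO had been the lowest at 1.45 CPM.

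AIF1 (ENSG00000204472, chr6:31615217-31617021, plus strand) encodes IBA1, an actin-bundling, calcium-binding protein used as a marker of microglia and macrophages. In MINO at 72 h its libraries held 6.08, 6.75 and 3.86 CPM with DMSO and 25.1, 33.4 and 23.0 CPM with GS716054, a 4.88-fold difference (log2 2.29 ± 0.25, SE). At 24 h the MINO ranges were 6.25 to 10.6 and 14.5 to 18.9 CPM, separated but closer. The 72 h groups were separated in the other lines as well. JEKO held 7.16, 9.25 and 9.02 CPM against 11.3, 22.0 and 18.7 CPM (2.05-fold), and UPN-1 13.6, 16.0 and 11.2 CPM against 28.3, 31.6 and 16.4 CPM (1.89-fold). At 24 h JEKO showed no separation, with 10.9 to 17.0 CPM with DMSO and 8.75 to 19.9 CPM with GS716054. Of the 9 genes fitted in JEKO, AIF1 had the highest value for the difference at 72 h minus that at 24 h, 1.01 ± 0.43 (log2, SE).

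MYO1F (ENSG00000142347, chr19:8520778-8577577, minus strand) encodes a class I myosin of leukocytes that links membrane to actin in adhesion and migration. In MINO it held 15.3, 11.98 and 12.2 CPM with DMSO and 43.96, 32.9 and 32.4 CPM with GS716054 at 24 h, or 2.72-fold (log2 1.44 ± 0.18, SE). At 72 h it held 8.23, 9.75 and 10.8 CPM against 24.7, 21.5 and 23.2 CPM. Both times showed a clear gap between the groups. UPN-1 overlapped at both times, at 2.57 to 3.75 CPM against 2.69 to 4.83 CPM at 24 h and 2.71 to 5.78 against 5.14 to 9.25 CPM at 72 h. In JEKO the gene was almost silent, with 1 read in the whole DMSO group and 12 in the treated group at 24 h, a ratio per gene read of 12.5 (95% exact interval 1.85 to 535, counting error only). At 72 h it had 16 and 28 reads, a ratio of 1.73 (0.906 to 3.43). The treated JEKO libraries at 24 h lay above DMSO, but all 3 stayed under 0.54 CPM.

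CNN2 (ENSG00000064666, chr19:1026586-1039068, plus strand) encodes calponin 2, a stabiliser of actin filaments present in myeloid cells and many other types. It was the member with the highest level per kilobase of exon in JEKO with DMSO at 24 h, 61.2 CPM per kb. In MINO, 108, 85.2 and 80.2 CPM with DMSO stood against 214, 256 and 153 CPM with GS716054 at 24 h. At 72 h, 52.1, 57.5 and 51.2 CPM stood against 212, 189.8 and 207 CPM, or 3.75-fold (log2 1.91 ± 0.18, SE). The treated MINO mean at 72 h was 203 CPM, against 157 CPM in JEKO with DMSO and 174 CPM with GS716054 at the same time. In UPN-1, CNN2 was separated at both times, at 14.1, 15.6 and 8.80 CPM against 27.5, 26.2 and 19.5 CPM at 24 h, and 34.5, 30.3 and 22.1 against 75.2, 58.5 and 46.0 CPM at 72 h. That was 1.90-fold and 2.09-fold. JEKO was separated by a small margin at 24 h, 219 to 228 against 252 to 278 CPM, and overlapped at 72 h. The annotation holds 11 pseudogene entries named after CNN2 and an opposite-strand gene over 9.29% of its exonic bases, so part of its reads may have been assigned elsewhere or left out.

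LBH (ENSG00000213626, chr2:30231534-30323730, plus strand) encodes a small cofactor of transcription studied in limb and heart development and as a target of WNT signalling. MINO had more of it than the other lines in every condition, with 128, 104 and 150.2 CPM with DMSO and 279, 317 and 258 CPM with GS716054 at 24 h. At 72 h the values were 121, 171 and 134 CPM against 255, 386 and 294 CPM. The difference was of similar size at both times, 2.19-fold and 2.18-fold (log2 1.13 ± 0.19 and 1.12 ± 0.19, SE). JEKO and UPN-1 were separated at 24 h by small margins, 42.6 to 50.6 against 56.0 to 69.9 CPM and 30.0 to 40.2 against 43.3 to 47.7 CPM. At 72 h both overlapped, with log2 differences of 0.18 ± 0.15 and 0.24 ± 0.15.

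TBC1D9 (ENSG00000109436, chr4:140620782-140756385, minus strand) encodes a protein with a TBC domain, the fold by which many such proteins switch off Rab proteins. Its MINO libraries held 50.3, 45.5 and 49.9 CPM with DMSO and 104, 118 and 87.9 CPM with GS716054 at 24 h. At 72 h they held 53.3, 52.7 and 54.6 CPM against 142, 181 and 139 CPM, or 2.85-fold (log2 1.51 ± 0.14, SE). The DMSO libraries of MINO differed little among themselves. In JEKO, 65.1 to 77.0 CPM overlapped 69.2 to 98.0 CPM at 24 h, and 36.7, 41.3 and 55.6 CPM were below 73.0, 64.7 and 74.7 CPM at 72 h. The JEKO DMSO mean had itself fallen from 72.8 to 44.5 CPM between the times. UPN-1 overlapped at both times, with log2 differences of 0.18 ± 0.17 and 0.19 ± 0.17.

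**Figure D2:**
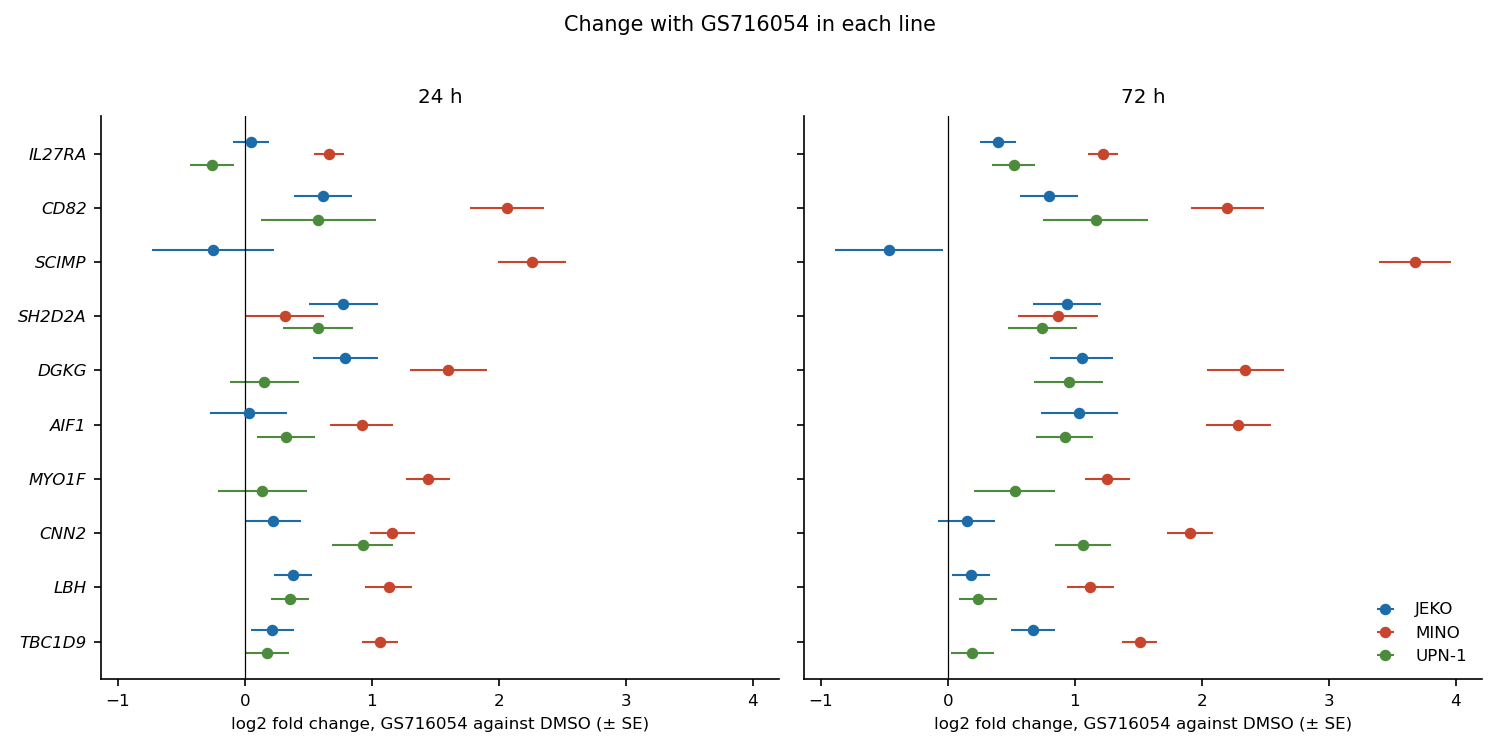
Log2 fold change of GS716054 against DMSO for the 10 genes at 24 h (left) and 72 h (right), with bars of 1 standard error from the fit of each line and 3 libraries in each group; MYO1F in JEKO and SCIMP in UPN-1 were not fitted. The MINO points lie furthest to the right for 9 genes at 24 h and 9 at 72 h; SH2D2A is the exception at both times.

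Separation in all libraries was used to tell shared from MINO-only differences. Every treated library exceeded every DMSO library for 10 genes in MINO at 24 h (19.9% of all genes) and 9 at 72 h (12.4%). In JEKO this held for 6 genes at 24 h (7.03%) and again for 6 at 72 h (6.51%). For UPN-1 the numbers were 4 (7.82%) and 6 (5.15%). These counts are out of all 10 genes, whereas the shares are over the genes fitted in each line. The 24 h count in JEKO includes MYO1F and the 72 h count in UPN-1 includes SCIMP, which were not fitted there. A gene counted as shared where every treated library exceeded every DMSO library in MINO and in at least 1 other line at the same time. At 24 h, 7 of the 10 genes were shared, beside 3.24% of the 17980 genes of the fit of all libraries, and 3 of them, CNN2, SH2D2A and LBH, were separated in all 3 lines (0.439% of genes). IL27RA, SCIMP and TBC1D9 were separated in MINO alone (14.2% of genes). At 72 h, 7 were again shared (2.23%), with AIF1, IL27RA and DGKG separated in all 3 lines (0.378%), while MYO1F and LBH were separated in MINO alone (8.85%). SH2D2A was separated in JEKO and UPN-1 but not MINO at 72 h. No gene was separated in MINO alone at both times: IL27RA and TBC1D9 moved from MINO alone to shared, LBH and MYO1F from shared to MINO alone, and the 72 h separation of SCIMP in UPN-1 rests on the 28 reads given above. AIF1, CNN2, CD82 and DGKG were shared at both times. The 24 h separation of MYO1F in JEKO rests on the 13 reads given above.

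The size of the difference varied among lines for part of the set. In the fit of all 36 libraries, edgeR called a difference of the treatment effect among the 3 lines for SCIMP alone at 24 h (0.106% of all genes) and for SCIMP, CNN2, IL27RA, LBH and TBC1D9 at 72 h (1.01% of all genes). At 72 h the MINO effect exceeded that of JEKO by 4.16 ± 0.46 (log2, SE) for SCIMP, 1.78 ± 0.32 for CNN2, 0.84 ± 0.19 for IL27RA, 0.96 ± 0.24 for LBH and 0.86 ± 0.23 for TBC1D9. It exceeded that of UPN-1 by 0.87 ± 0.32 for CNN2 and 1.35 ± 0.23 for TBC1D9. For AIF1, CD82 and DGKG the excess of MINO over JEKO was 1.27 ± 0.40, 1.42 ± 0.40 and 1.31 ± 0.38, and edgeR called none of these. With other settings some of them passed the threshold at 72 h: CD82 with the replicate block, AIF1 and DGKG with DESeq2, and AIF1 and CD82 without the filter on low counts. Over all genes, calls at 72 h rose from 182 to 528 with the block and to 453 with DESeq2, of 17980. Without the filter they were 580 of 34826. SH2D2A had the nearest effects, with -0.05 ± 0.43 between MINO and JEKO and 0.16 ± 0.45 between MINO and UPN-1. With the replicate block 5 genes were called at 24 h, namely SCIMP, CNN2, CD82, IL27RA and TBC1D9, and DESeq2 also called 5. Calls over all genes at 24 h rose as well, from 19 to 247 with the block and to 193 with DESeq2, of 17980. The rise is therefore not read as particular to these genes. The SCIMP call at 24 h was lost without any 1 of 6 libraries: JEKO DMSO replicate 2 or 3, MINO DMSO replicate 2 or 3, or MINO treated replicate 1 or 2. At 72 h the calls of SCIMP, CNN2 and TBC1D9 stood in all 18 fits that left out 1 library, that of IL27RA in 12 and that of LBH in 7. Both were lost without JEKO DMSO or treated replicate 3, MINO DMSO replicate 1 or 3, or MINO treated replicate 2 or 3. LBH was also lost without JEKO DMSO replicate 2, JEKO treated replicate 1, UPN-1 DMSO replicate 2, or UPN-1 treated replicate 1 or 3. IL27RA was not called without the filter on low counts. These contrasts contain the differences that chose the genes.

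**Figure D3:**
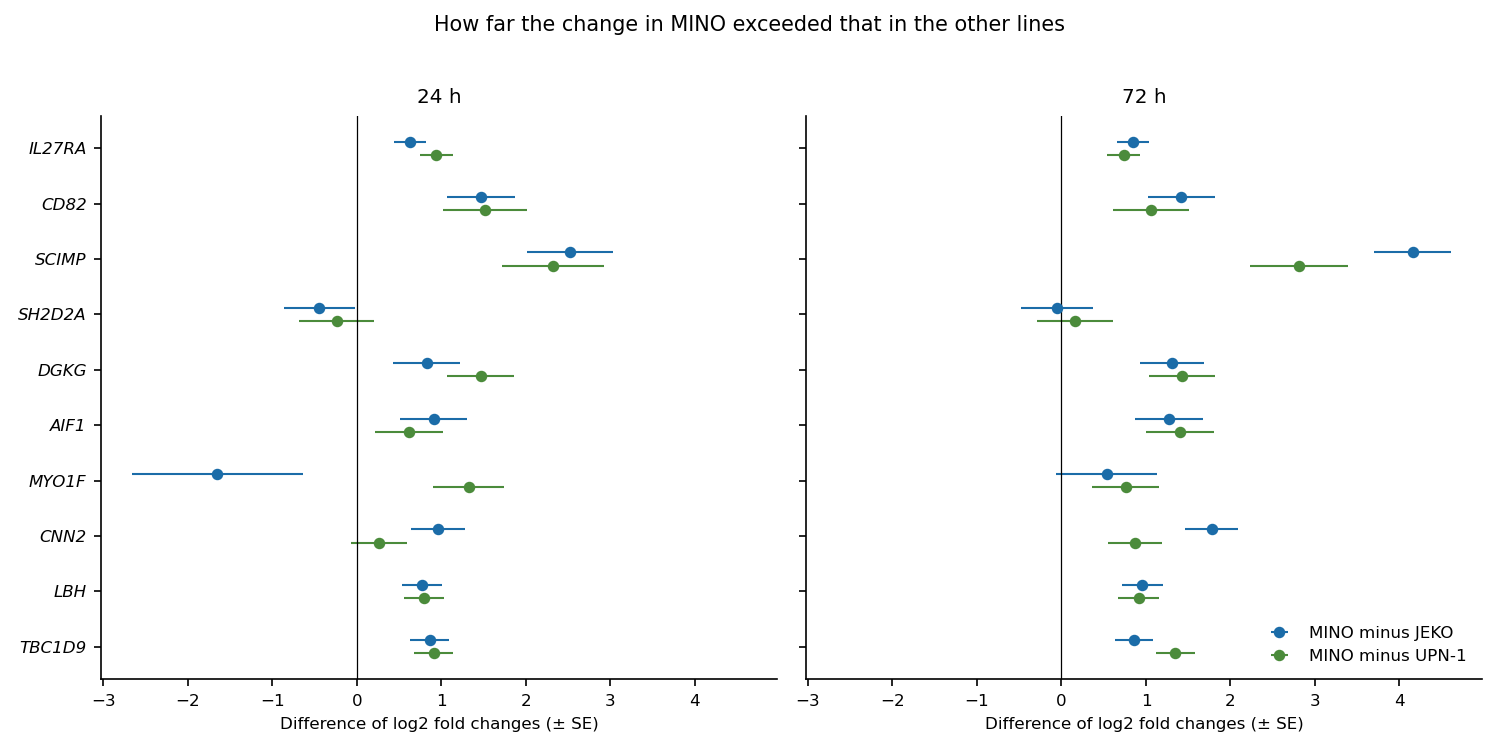
Difference between the log2 fold change in MINO and that in JEKO (blue) or UPN-1 (green) for the 10 genes at 24 h (left) and 72 h (right), with bars of 1 standard error from the fit of 36 libraries. SCIMP lies furthest right at 72 h (4.16 and 2.81) and SH2D2A near 0 at 72 h; the wide MYO1F value against JEKO at 24 h rests on 1 DMSO read.

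The effect at 72 h minus that at 24 h was positive in MINO for 8 of the 10 genes, from 0.14 ± 0.40 (log2, SE) for CD82 to 1.37 ± 0.35 for AIF1 and 1.42 ± 0.38 for SCIMP. It was -0.01 ± 0.26 for LBH and -0.19 ± 0.25 for MYO1F. No such change of effect was called by edgeR in any line, where 0.0133% of genes in MINO and 0% in JEKO and UPN-1 were called, and DESeq2 called none. In MINO 5 of the 10 genes had an unadjusted p under 0.05, and in JEKO and UPN-1 1 of 9 each. Over all genes tested, 755 of 15028 did in MINO, 299 of 16690 in JEKO and 232 of 15248 in UPN-1. The DMSO means of AIF1, SCIMP and CNN2 in MINO, against which these effects are measured, were 5.56, 2.15 and 53.6 CPM at 72 h and 8.51, 4.14 and 91.0 CPM at 24 h.

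Levels in DMSO were compared without any treated library, although the DMSO libraries also entered the contrasts that chose the genes. Few of the genes were called for a difference over time in DMSO. TBC1D9 fell in JEKO by 0.71 ± 0.17 on the log2 scale (edgeR adjusted p = 0.00833), 1 of 9 tested beside 31.7% of all genes. CNN2 rose in UPN-1 by 1.196 ± 0.24 (adjusted p = 0.0355), 1 of 9 beside 1.47%, with DMSO libraries at 8.80 to 15.6 CPM at 24 h and 22.1 to 34.5 CPM at 72 h. That call was lost without any 1 of 5 libraries, namely the 3 DMSO libraries at 24 h and replicates 1 and 2 at 72 h. In MINO none of the 10 was called, beside 0.0932% of genes, and 4 had an unadjusted p under 0.05, beside 3580 of 15028 genes. These 4 were lower at 72 h, by log2 differences of -0.93 for SCIMP, -0.76 for CNN2, -0.62 for AIF1 and -0.45 for MYO1F. At the same level 4 of 9 genes counted in JEKO, beside 7357 of 16690, and 2 of 9 in UPN-1, beside 3888 of 15248. For CNN2 in MINO, the log2 difference of -0.76 ± 0.18 had an adjusted p of 0.108 in edgeR and 0.0072 in DESeq2.

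The lines differed widely in DMSO. Between MINO and JEKO, 10 of the 10 genes differed at 24 h (49.2% of all genes did) and 8 at 72 h (54.5%). IL27RA, CD82, SCIMP, LBH and MYO1F were higher in MINO at 24 h, whereas CNN2, SH2D2A, DGKG, AIF1 and TBC1D9 were higher in JEKO. MYO1F stood furthest apart, with 408 reads in the 3 MINO libraries against 1 in JEKO, a ratio per gene read of 421 (95% exact interval 75.1 to 16700, counting error only). UPN-1 had the lowest DMSO mean of the 3 lines at both times for 7 of the genes, all but DGKG, AIF1 and MYO1F. Its CNN2 mean was 12.8 ± 3.6 CPM (SD, n = 3) at 24 h against 91.0 ± 14.6 in MINO and 223 ± 4.4 in JEKO. It was below JEKO by 4.14 ± 0.25 on the log2 scale (edgeR adjusted p = 1.52e-10). UPN-1 and JEKO differed for 6 genes at 24 h (45.6% of all) and 9 at 72 h (54.2%), and UPN-1 and MINO for 8 (44.3%) and 9 (46.8%). For DGKG, JEKO and UPN-1 were not told apart at either time (log2 0.39 ± 0.26 and -0.45 ± 0.26), and both were above MINO. At 24 h the DMSO level of SCIMP and CD82 was higher in MINO than in either other line, and that of DGKG and AIF1 lower in MINO than in JEKO. Without the filter on low counts, the calls between MINO and JEKO at 24 h were lost for CD82 (adjusted p = 0.054) and DGKG (adjusted p = 0.0684), and with DESeq2 size factors for CD82 (adjusted p = 0.0668).

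Relatives and partners of the genes were taken from fixed lists, and counts in MINO at 72 h are given with the gene itself included, which was chosen for being higher there. Of all genes tested, 3.51% were called higher and 2.05% lower, and 3333 of 15028 had an unadjusted p under 0.05 in either direction. Of 11 genes of interleukin-27 signalling, 9 were tested and 4 were called higher, among them IL27RA, EBI3 (a subunit of interleukin-27, log2 1.68 ± 0.41) and JAK1. Among tetraspanins, 3 of 14 tested rose, CD82 with CD9 (1.79 ± 0.24) and TSPAN4 (0.98 ± 0.25). Of 8 transmembrane adaptors, 5 were tested and SCIMP alone was called, and of the 4 binding partners of SCIMP, LYN rose by 0.55 ± 0.13. None of 5 tested SH2D-family adaptors was called by edgeR, and 3 had an unadjusted p under 0.05. The diacylglycerol kinases split, DGKG and DGKA (0.64 ± 0.15) being higher and DGKH (-0.66 ± 0.12) and DGKD (-0.67 ± 0.16) lower, 4 of 7 tested. Of the class I myosins, MYO1F and MYO1G (0.88 ± 0.23) rose among 4 tested, and of the calponin, transgelin and AIF1 genes only CNN2 and AIF1 among 5. Of 12 leukocyte actin regulators 1 was called, HCLS1 (0.56 ± 0.12), and of TBC1D8 and TBC1D9 relatives only TBC1D9 among 3. CD79A and MS4A1 were called among 8 B-cell markers and MS4A7 (2.41 ± 0.47, mean 0.493 against 2.73 CPM) among 5 tested myeloid markers, while no T-cell, NK-cell, plasma-cell, mantle cell lymphoma or KDM5 gene was called. The 7 plasma-cell markers had a median log2 difference of -0.56, with 1 positive and 4 at an unadjusted p under 0.05. At that level 1 of 6 tested T-cell markers, 1 of 1 tested NK-cell marker, 0 of 3 mantle cell lymphoma markers and 0 of 4 KDM5 genes counted. In JEKO and UPN-1 at 72 h, 1 gene of these lists was called, PRDM1 in JEKO (1.34 ± 0.23).

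Over the 36 libraries, with each line's mean removed, all pairs of the 10 genes had a positive correlation of log2 CPM. The closest pair was CD82 and LBH, with a Pearson r of 0.865, and the pair of CNN2 and SH2D2A had 0.261. Outside the set, the genes most like a member were GMIP for LBH (r = 0.924), CD79A and FAM177B for AIF1 (0.848 and 0.867), BTG2 for CD82 (0.888), MCL1 for DGKG (0.885), GLRA3 for TBC1D9 (0.885), TMEM86A for MYO1F (0.843), CRB2 for IL27RA (0.842), RASA3 for SH2D2A (0.755) and LGALS1 for CNN2 (0.841). These are descriptions over libraries that share lines and treatment. Only line means were removed, so the treatment difference that chose the 10 genes enters every correlation. Positive values among the 10 genes follow in part from that choice.

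For CNN2, SCIMP and CD82, the counts assigned to the opposite-strand neighbours rose and fell with those of the gene. ENSG00000279753, within CNN2, was the gene most like it (r = 0.938) and had means of 9.92 and 42.0 CPM with DMSO and GS716054 in MINO at 72 h. ZNF594-DT was the gene most like SCIMP (r = 0.851), with 0.903 and 8.67 CPM. CD82-AS1 had an r of 0.845 with CD82 and means of 2.83 and 11.3 CPM. Whether the counting used strand is not given in the sources used here, so reads of a gene and its opposite-strand neighbour cannot be told apart for these 3 pairs. Reads assigned to no gene feature made up 43.3% to 45.9% of each table's total, beside 40.7% to 44.9% in genes. How much of each neighbour's count came from reads of the gene itself was not tested. MYO1F had no such neighbour of note, since ENSG00000268618 held at most 8 reads in any group.

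**Figure D4:**
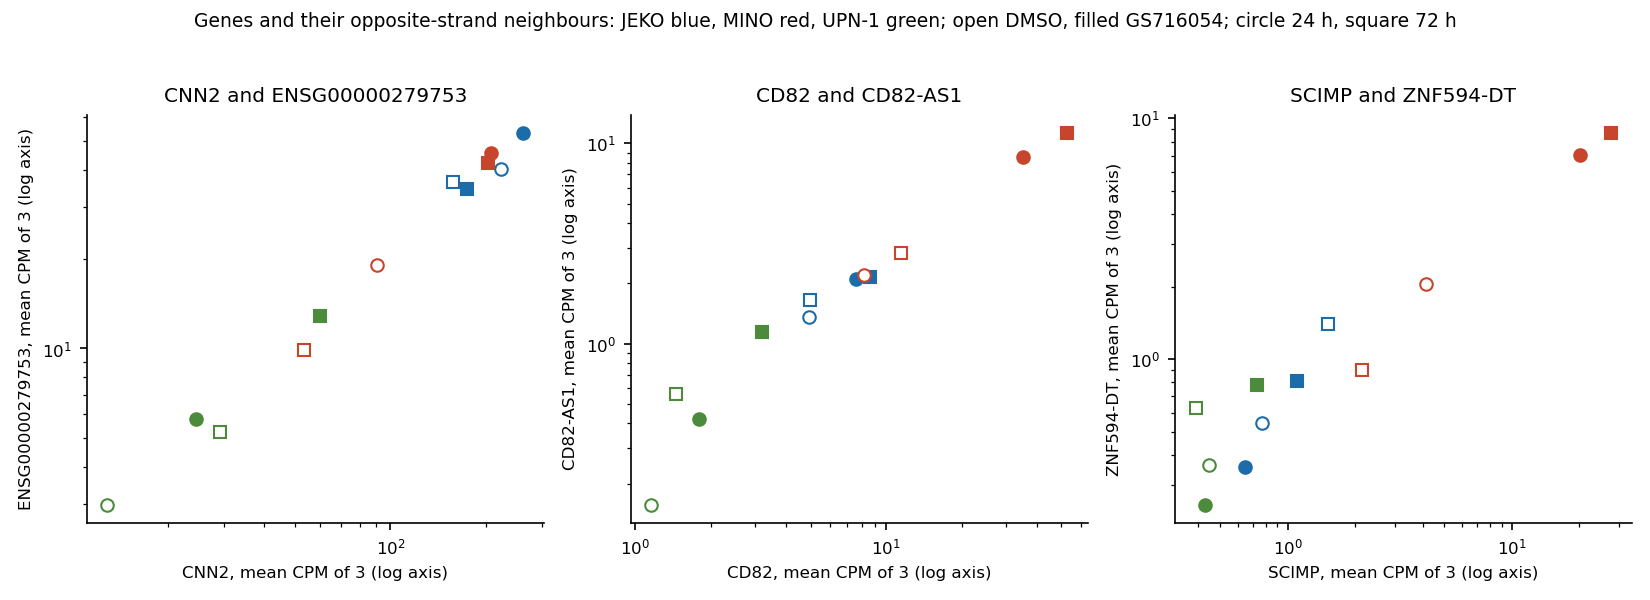
Mean CPM of CNN2, CD82 and SCIMP (x axes, log scale) against their opposite-strand neighbours (y axes, log scale) in the 12 groups of 3 libraries; colour is the line, open symbols are DMSO and filled ones GS716054, circles 24 h and squares 72 h. In each panel the filled MINO symbols lie above and to the right of the open ones, as for SCIMP and ZNF594-DT at 72 h (2.15 and 0.903 CPM against 27.8 and 8.67 CPM).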

How the data were processed

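RNA of 3 cell lines was sequenced in 36 libraries, and the authors deposited 1 table of whole-number read counts per gene and library. The submitters' processing notes name HISAT2 2.2.1, HTSeq 0.13.5 and GRCh38. The annotation release and the strand setting of the counting are not given in the sources used here. The 5 summary lines of each table (55.1% to 59.3% of its total) were left out. Symbols and exons came from GENCODE v44 on GRCh38 by gene ID, and 57532 of 58302 IDs matched. Promoter windows came from RefSeq (GRCh38.p14), and 7 of the 10 genes matched.

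Counts were fitted in R 4.3.3 with edgeR 4.0.16 (glmQLFit and glmQLFTest, TMM scaling, filterByExpr with a minimum count of 10 and total of 15). Each line was fitted alone (12 libraries, 8 residual degrees of freedom; 16690 genes in JEKO, 15028 in MINO, 15248 in UPN-1), the 18 DMSO libraries together (16956 genes) and all 36 together (17980 genes). Adjusted p-values are Benjamini-Hochberg values over all genes of a fit, and a gene was called under 0.05. Each standard error was derived from the fitted fold change and its F statistic. CPM are TMM-scaled over all 36 libraries, so they differ slightly from a scaling within a line. Intervals of count ratios are exact binomial ones. The procedure was tested on simulated data: for MINO at 72 h, 46% of 2-fold and 91% of 4-fold changes were recovered in a run of 15028 genes. Changes were placed only in genes above a floor of expected counts, so recovery at lower counts was not measured. The simulated libraries had no shared deviation by replicate number, and the fits of JEKO and UPN-1 alone were not simulated. DESeq2 1.42.0, its size factors, no filter, a replicate block, only the libraries compared, and leaving out each library were the alternatives.

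The 10 genes, the lists and the motifs were chosen with earlier results of these data known. All 10 genes were named. Of each list, at most 2 genes in each direction with the smallest adjusted p in MINO at 72 h get values, and 1 such gene is not reported here. The most similar genes are the 2 with the highest Pearson r of log2 CPM after removing each line's mean, of which 1 or both are given. Same-numbered DMSO and treated libraries were counted as deviating together where every correlation of their deviations from the group means exceeded 0.1. This held in MINO and UPN-1 at both times (0.107 to 0.581) and in JEKO at 72 h (0.293 to 0.595), and not in JEKO at 24 h (lowest 0.0554). No labels say that a number marks a shared batch. The main fits, with their calls and standard errors, used no replicate block, which was run only as an alternative.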

Additional observations from a re-analysis of the deposited data

Results flagged for a closer look

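The effect of GS716054 differed among the 3 lines by edgeR's test of that difference, adjusted over all genes, for 1 gene at 24 h and 5 at 72 h. The genes were chosen for effects that enter this test. For SCIMP the adjusted p was 0.021 at 24 h and 4.91e-06 at 72 h, with MINO effects of 2.26 and 3.68 (log2) against -0.25 and -0.46 in JEKO. For TBC1D9 at 72 h it was 0.00544, with effects of 1.51 in MINO, 0.67 in JEKO and 0.19 in UPN-1. CNN2 at 72 h had 0.00892, with 1.91 in MINO, 0.15 in JEKO and 1.06 in UPN-1, so that UPN-1 lay nearer to MINO than JEKO did. IL27RA at 72 h had 0.0261, with 1.22, 0.40 and 0.52 in MINO, JEKO and UPN-1. LBH at 72 h had 0.0431, with 1.12, 0.18 and 0.24.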

How the results depend on the processing

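The number of the 10 genes called higher in MINO stayed at 9 at 72 h when any 1 library was left out and ranged from 4 to 8 at 24 h. Calls over all genes at 24 h fell as well, for example from 216 to 18 of 15028 without DMSO replicate 2. In JEKO the ranges were 0 to 0 at 24 h and 0 to 1 at 72 h (1, SH2D2A, without DMSO replicate 1), and in UPN-1 0 to 0 and 0 to 2 (2, AIF1 and CNN2, without treated replicate 3). Without the filter on low counts, 1 gene was called in JEKO at 24 h, 4 in JEKO at 72 h, 1 in UPN-1 at 24 h, 2 in UPN-1 at 72 h and 1 for the gain from 24 h to 72 h in MINO. Over all genes in JEKO, 31 and 211 of 31262 were called higher without the filter at 24 h and 72 h, against 0 and 34 of 16690 with it. Most counts below are not set beside all genes under the same setting, so a rise or fall is not read as particular to the 10 genes. The genes were chosen for the treated differences, so treated counts that hold under other settings are a description. DESeq2 called 2 in JEKO, where it called 163 of 16690 genes higher, and 2 in UPN-1 at 72 h. With the replicate block, 1 was called in UPN-1 at 24 h and 2 at 72 h, and the block changed no other treated count by over 1.5 times. The test of a difference among lines called 5 genes at 24 h without the filter, with the block and with DESeq2, and leaving out 1 library gave 0 to 2 at 24 h and 3 to 6 at 72 h. Over all genes at 24 h, that test called 247 of 17980 with the block and 193 with DESeq2, against 19 in the main fit. Without the filter it called 266 of 34826. For time in DMSO, JEKO gave 4 calls without the filter and 2 with the block, with DESeq2 or with only the libraries compared, and 1 to 2 with 1 library left out. MINO gave 2 without the filter, 1 with the block and 1 with DESeq2, and UPN-1 gave 0 with only the libraries compared and 0 to 1 with 1 left out. Between lines in DMSO, leaving out 1 library gave 7 to 10 and 7 to 8 calls for MINO against JEKO, 5 to 6 and 7 to 8 for UPN-1 against JEKO, and 8 to 8 and 9 to 9 for UPN-1 against MINO. Between MINO and JEKO at 72 h AIF1 was not called without the filter (adjusted p = 0.0546), nor was LBH between UPN-1 and JEKO at 72 h (adjusted p = 0.123). Small differences over time in DMSO changed sign when 1 library was left out: the log2 values ranged in JEKO from -0.27 to 0.37 for SH2D2A and from -0.093 to 0.11 for CD82, in MINO from -0.079 to 0.018 for IL27RA, and in UPN-1 from -0.42 to 0.075 for SH2D2A and from -0.28 to 0.65 for CD82. The causes were not tested. DMSO libraries of the 2 times with the same number were not counted as deviating together (correlations from -0.0662 to 0.171). The fit of only the libraries compared was not run for the gain between times or the difference among lines, which use more groups. Depth limits MYO1F in JEKO and SCIMP in UPN-1, which had at most 13 reads in any library.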
